A study of Mus musculus with 6 samples.

Results

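The branched-chain amino acid catabolism enzymes described here are 10 genes: Bcat2, the transaminase, Bckdha, Bckdhb and Dbt of the dehydrogenase complex, Bckdk and Ppm1k, its kinase and phosphatase, and Hibch, Aldh6a1, Mccc1 and Ivd of the distal steps. They form a list of gene names, drawn up with earlier results of these data known, so the counts below describe them and are not independent evidence of a direction. Each was read from the array row whose annotation named that gene alone, and for a gene with several such rows from the one with the highest mean over all 6 arrays. All 10 had a row, out of 22180 genes with a row of their own and 41345 rows in all. RNA came from epididymal white adipose tissue (eWAT) of male C57BL/6 mice aged 8 months, all kept on the high-fat diet D12492 for 21 weeks. Wild-type mice (WT) gave 3 arrays and mice with an adipose-specific Blnc1 transgene (Tg) gave 3. Blnc1 is a noncoding transcript first studied in brown and beige adipocytes. There was no group on another diet. The sources used here do not give the promoter of the transgene or the number of founder lines. The replicates are biological by their labels, and an array stands for 1 mouse here. Array values are on the log2 scale and are listed in the order of replicates 1, 2 and 3.

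Leucine, isoleucine and valine are broken down inside mitochondria. The transaminase first removes the amino group, and the branched-chain ketoacid dehydrogenase complex then commits the ketoacid to breakdown. The kinase turns the complex off by phosphorylating its E1 alpha subunit and the phosphatase turns it on again. The distal enzymes carry each carbon skeleton to acetyl-CoA, acetoacetate or propionyl-CoA. In adipocytes the pathway is induced during differentiation and feeds lipogenesis, and its expression in visceral fat is known to be low in obesity and insulin resistance.

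Promoter sequences of 4 of the genes are shown because they take the extremes of the results. Bckdhb and Hibch had the largest differences between the genotypes, and Bckdk and Ppm1k the smallest. Each is the 250 bases before a start site of the gene (for Bckdhb the first of its 2 windows), written 5′ to 3′ on the gene's strand and taken from RefSeq on GRCm38.p6. No source used here names the build behind the array rows. Capitals mark each match on either strand to the GC box, spelled GGGCGG, to the CCAAT box, whose name is its letters, or to the TATA box, searched as TATAAA. Matches that touch each other run together.
Bckdhb, chr9:83924887-83925136, plus strand: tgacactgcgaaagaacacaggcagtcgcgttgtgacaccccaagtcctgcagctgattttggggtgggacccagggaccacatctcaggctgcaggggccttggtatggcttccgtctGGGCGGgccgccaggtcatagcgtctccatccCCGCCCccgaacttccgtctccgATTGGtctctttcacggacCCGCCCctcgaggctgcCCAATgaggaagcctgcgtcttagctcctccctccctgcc
Hibch, chr1:52844788-52845037, plus strand: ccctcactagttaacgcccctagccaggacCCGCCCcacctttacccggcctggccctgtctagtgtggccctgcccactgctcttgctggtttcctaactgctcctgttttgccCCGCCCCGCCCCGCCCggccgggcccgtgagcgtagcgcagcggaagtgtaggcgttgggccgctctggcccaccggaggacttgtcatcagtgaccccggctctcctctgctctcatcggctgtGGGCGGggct
Bckdk, chr7:127903823-127904072, plus strand: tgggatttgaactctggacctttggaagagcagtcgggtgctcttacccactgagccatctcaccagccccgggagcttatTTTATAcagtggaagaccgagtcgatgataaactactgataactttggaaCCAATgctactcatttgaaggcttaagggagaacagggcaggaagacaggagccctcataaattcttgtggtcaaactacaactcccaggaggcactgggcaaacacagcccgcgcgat
Ppm1k, chr6:57535488-57535737, minus strand: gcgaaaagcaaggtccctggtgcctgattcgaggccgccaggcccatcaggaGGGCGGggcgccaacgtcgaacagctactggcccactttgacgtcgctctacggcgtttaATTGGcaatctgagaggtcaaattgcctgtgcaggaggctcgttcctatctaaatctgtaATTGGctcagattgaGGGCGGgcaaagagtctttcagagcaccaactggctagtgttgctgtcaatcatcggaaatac
The window of Bckdhb also overlapped the RefSeq model Gm36278, while the other 3 overlapped no other gene. The windows of Bckdhb and Ppm1k overlapped the RefSeq model of their own gene, and those of Hibch and Bckdk did not. In the Bckdhb window shown 63.2% of bases were G or C, in that of Hibch 68.0%, of Bckdk 50.0% and of Ppm1k 54.4%, against a median of 52.4% over all 32851 such windows. Hibch held 5 GC boxes, Bckdhb 3 and Ppm1k 2, and Bckdk had no match to these letters. The second window of Bckdhb, at chr9:83948531-83948780, had 36.4% G or C, the lowest of the members' windows, and no match to any motif searched. Which of its starts is used in this tissue was not analysed here. A GC box was present in 32.7% of all windows, a CCAAT box in 33.8% and a TATA box in 12.4%. Among the 12 windows of the 9 members with a promoter in the table (all but Dbt), a GC box was found in 4, a CCAAT box in 7 and a TATA box in 1. The core bound by EBF factors, searched as CCCNNGGG on both strands, was found in 2 of these 12 windows, 1 each of Bcat2 and Aldh6a1, and in 11.8% of all windows. The ERR receptor element TCAAGGTCA (0.387% of all windows), the E-box CACGTG (6.02%) and the NRF1 core TGCGCA (6.43%) had no match in the 12. Such matches describe the letters alone.

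Of the 10 genes, 9 had a higher mean in Tg than in WT, and in 5 of them (Bcat2, Bckdhb, Dbt, Hibch and Aldh6a1) each Tg array read higher than each WT array. Over all rows, 7.36% had the Tg arrays apart on the high side, and 12.4% of the 8711 rows that were at least as bright as the dimmest member. The median difference of the 10 genes, Tg minus WT, was 0.31 on the log2 scale, with a range from -0.026 to 0.55, against a median of -0.014 over all rows. A higher Tg mean was found in 47.2% of all rows and in 45.4% of the equally bright rows (60.2% of all rows with each array centred on its median). No difference passed the test. Limma called 0 of 41345 rows (0%) at a Benjamini-Hochberg adjusted p of 0.05 or below, and the adjusted p of the 10 genes ran from 0.33 to 0.96. At an unadjusted p under 0.05 there were 5 of the 10, all higher in Tg, against 4.43% of all rows and 7.34% of the equally bright rows. With 3 arrays against 3, an exact 2-sided permutation test cannot give a p below 0.1, which is the value of the 5 genes whose groups lay apart.

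**Figure D1:**
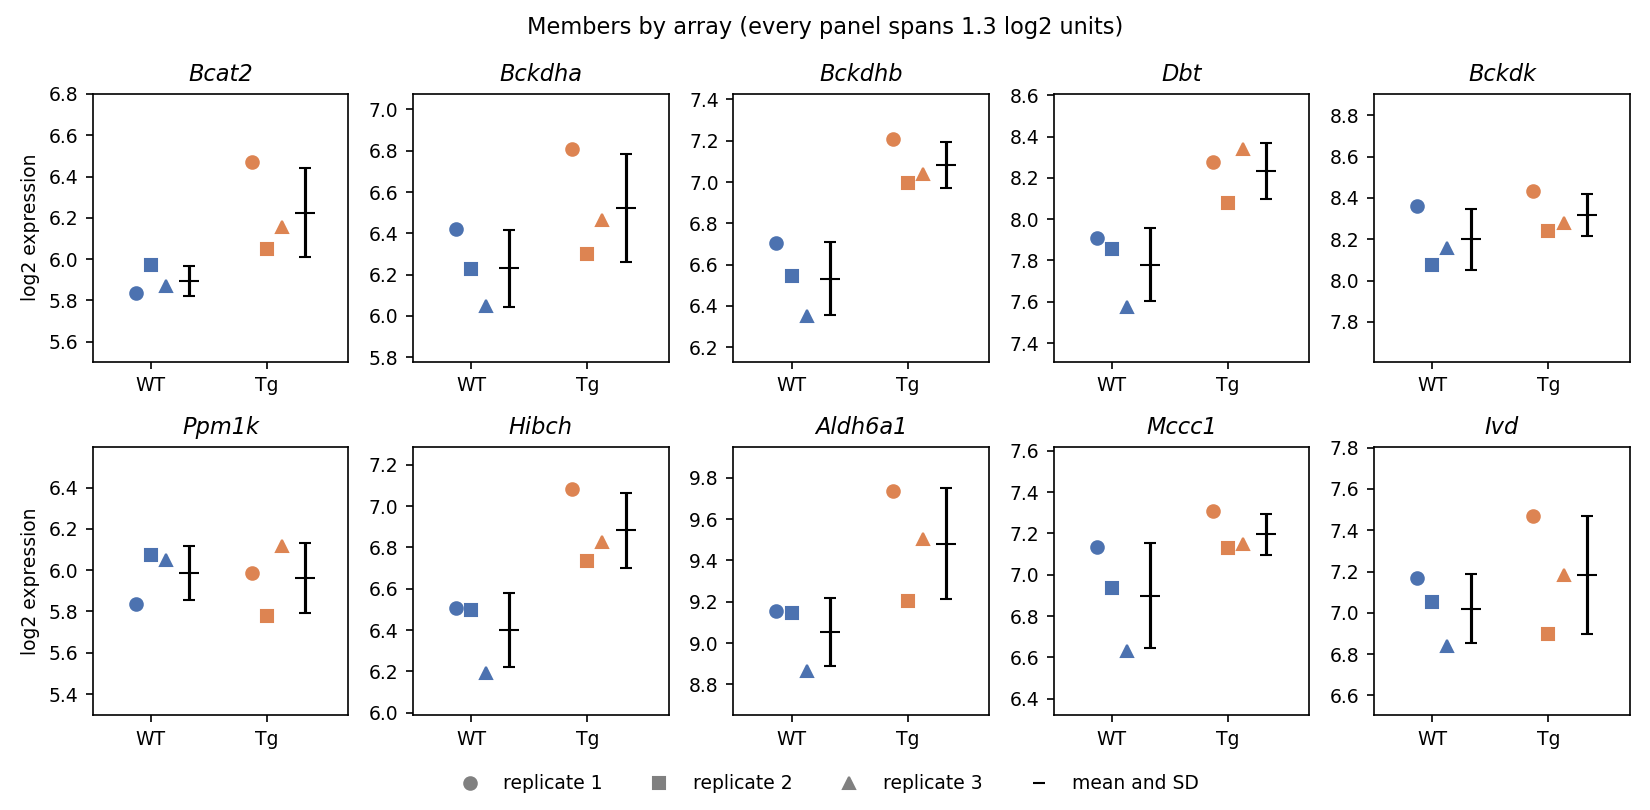
Log2 expression of the 10 genes on each array, in panels that all span 1.3 log2 units, with WT in blue, Tg in orange, 1 symbol per replicate number, and the group mean with its SD in black. The groups lie apart in Bcat2, Bckdhb, Dbt, Hibch and Aldh6a1 and overlap in the other 5.

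Bcat2, the mitochondrial transaminase that starts the pathway, read 5.84, 5.97 and 5.87 in WT and 6.47, 6.05 and 6.16 in Tg. The WT arrays lay close together and Tg 1 stood above the other Tg arrays, while the gap between WT 2 and Tg 2 was small. The difference was 0.33 ± 0.13 (SE, n = 3 per group; 1.26-fold, limma adjusted p = 0.48). Without Tg 1 it was 0.21. Only 1 row named Bcat2.

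The dehydrogenase complex held the largest difference of the 10 genes. Bckdhb encodes its E1 beta subunit, and it read 6.70, 6.54 and 6.35 in WT and 7.21, 7.00 and 7.04 in Tg. Every Tg array was above every WT array by a margin wider than the spread within Tg. The difference was 0.55 ± 0.13 (SE, n = 3 per group), or 1.46-fold, with a 95% interval of 0.24 to 0.86 and an adjusted p of 0.33 in limma. Leaving out any 1 array moved it between 0.46 and 0.63.

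Dbt encodes the E2 subunit, the core of the complex that transfers the acyl group to coenzyme A. It read 7.91, 7.85 and 7.58 in WT and 8.28, 8.08 and 8.34 in Tg, again with WT 3 lowest and no overlap. The difference was 0.45 ± 0.13, or 1.37-fold (SE, n = 3 per group; limma adjusted p = 0.38). Bckdha, which encodes the E1 alpha subunit that the kinase phosphorylates, read 6.42, 6.23 and 6.05 in WT and 6.81, 6.30 and 6.46 in Tg. Its groups overlapped, because Tg 2 lay below WT 1. The Bckdha difference was 0.29 ± 0.17 with an interval of -0.11 to 0.70 (limma adjusted p = 0.59), and 0.15 without Tg 1. Dld, the E3 subunit that this complex shares with other ketoacid dehydrogenases, differed by 0.16 ± 0.10 and its groups overlapped (limma adjusted p = 0.64).

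The enzymes that set the activity of the complex differed least. Bckdk, the inhibitory kinase, read 8.36, 8.08 and 8.16 in WT and 8.44, 8.24 and 8.28 in Tg. WT 1 was above both Tg 2 and Tg 3. The Bckdk difference was 0.12 ± 0.12 (SE, n = 3 per group), with an interval of -0.16 to 0.40 (limma adjusted p = 0.76). It was 0.058 without WT 2, 0.061 without Tg 1 and 0.20 without WT 1. Ppm1k, the activating phosphatase, read 5.84, 6.07 and 6.05 in WT and 5.99, 5.78 and 6.12 in Tg, so the lowest and the highest array were both Tg. Its difference was -0.026 ± 0.13, with an interval of -0.34 to 0.28 (limma adjusted p = 0.96), and its sign changed with the scaling: 0.0055 after cyclic loess and 0.039 after centring on array medians. Both intervals include changes in either direction.

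**Figure D2:**
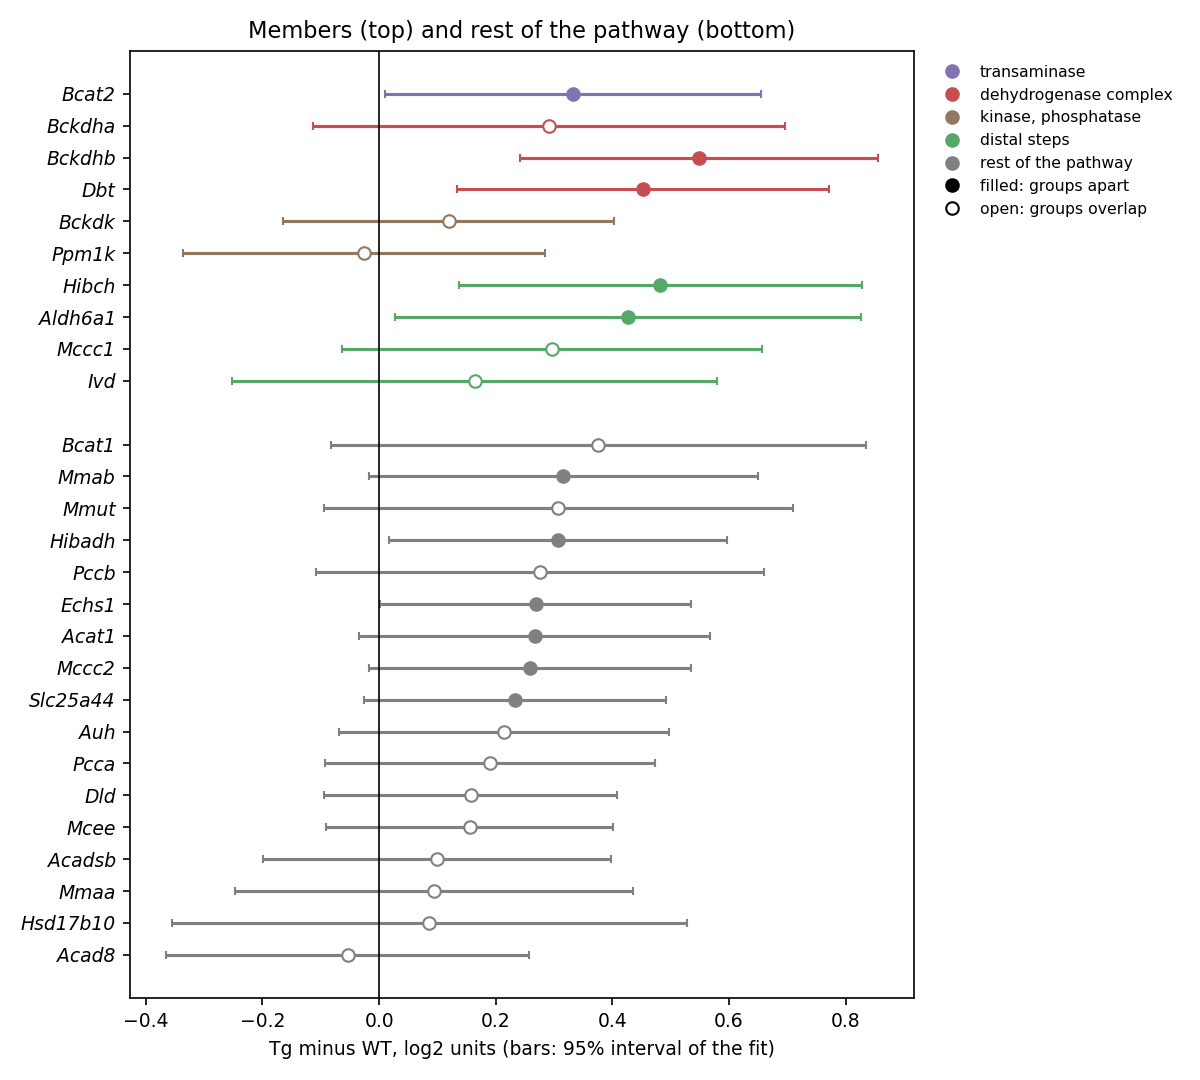
Difference of Tg minus WT in log2 units, with its 95% interval from limma, for the 10 genes (top, coloured by step) and for 17 other genes of the pathway (bottom, grey, ordered by size); filled points have groups that do not overlap. Bckdhb lies farthest from 0 at 0.55, and Ppm1k and Acad8 are the genes below 0.

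Among the distal steps, both valine enzymes had groups that lay apart. Hibch hydrolyses 3-hydroxyisobutyryl-CoA, and it read 6.51, 6.50 and 6.19 in WT and 7.08, 6.73 and 6.83 in Tg. WT 1 and WT 2 were nearly equal and WT 3 was lower. The Hibch difference was 0.48 ± 0.14 (SE, n = 3 per group), or 1.40-fold, with an interval of 0.14 to 0.83 (limma adjusted p = 0.38).

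Aldh6a1, the methylmalonate-semialdehyde dehydrogenase at the end of the valine branch, read 9.15, 9.14 and 8.86 in WT and 9.74, 9.20 and 9.51 in Tg. Tg 2 was above WT 1 by a small margin only, and the other Tg arrays stood clear of all WT arrays. The difference was 0.43 ± 0.17, or 1.34-fold (SE, n = 3 per group; limma adjusted p = 0.46). Without Tg 1 it was 0.30, the lowest of the values with 1 array left out. A dimmer second row of Aldh6a1 read 3.45, 2.83 and 2.98 in WT and 4.02, 4.52 and 3.53 in Tg, with groups apart as well. In that row the difference was 0.94 ± 0.28 (limma adjusted p = 0.38), and Tg 2, the lowest Tg array of the bright row, was the highest.

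Both leucine enzymes overlapped between the groups. Mccc1, the biotin-carrying alpha subunit of methylcrotonyl-CoA carboxylase, read 7.13, 6.93 and 6.63 in WT and 7.31, 7.13 and 7.15 in Tg, with Tg 2 just below WT 1. The Mccc1 difference was 0.30 ± 0.15 (SE, n = 3 per group; limma adjusted p = 0.55). Ivd, the isovaleryl-CoA dehydrogenase, read 7.17, 7.05 and 6.84 in WT and 7.47, 6.90 and 7.18 in Tg. Tg 2 lay between WT 2 and WT 3. The Ivd difference was 0.16 ± 0.17, with an interval of -0.25 to 0.58 (limma adjusted p = 0.78). It was 0.021 without Tg 1, 0.073 without WT 3 and 0.31 without Tg 2. Without WT 3 the Mccc1 difference was 0.16. Whether the valine and leucine steps differed from each other was not tested.

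The arrays kept a similar order from gene to gene. WT 3 was the lowest of all 6 arrays in 7 of the 10 genes and Tg 1 the highest in 8, while among the equally bright rows WT 3 was lowest in 25.0% and Tg 1 highest in 20.1%. Tg 2 was the lowest Tg array in all 10 genes, and in 3463 of the 8711 equally bright rows. Relative to the mean of all 6 arrays, the mean of the 10 genes was -0.051, -0.12 and -0.30 in WT and 0.32, -0.013 and 0.15 in Tg. Tg 2 thus lay close to WT 1.

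White adipocyte markers had almost the same profile. Of 12 listed, 11 had a row, and these read between 5.31 and 12.4. Their mean relative to all 6 arrays was -0.027, -0.14 and -0.29 in WT and 0.29, -0.021 and 0.19 in Tg. All 11 were higher in Tg, by a median of 0.36, with 5 apart (7.36% of all rows were apart on this side). Adipoq, the gene of adiponectin, differed by 0.62 ± 0.19 with groups apart (limma adjusted p = 0.38). Slc2a4, the insulin-responsive glucose transporter, differed by 0.43 ± 0.26 with groups overlapping (limma adjusted p = 0.60). The fat-cell genes Fabp4, Cebpa, Lpl and Cd36 differed by 0.098, 0.077, 0.047 and 0.018, and Retn, the largest of the 11, by 0.63. Differences in adipocyte number, in RNA per adipocyte or in single genes within adipocytes cannot be told apart in bulk tissue. None of these was tested.

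After each array was centred on the mean of these 11 markers, a step chosen after seeing the data, the median difference of the 10 enzymes was 0.0093 and 5 were above 0, against 8.82% of all rows. The centring lowers the Tg minus WT difference of every row by the same 0.31. The fall of the median and the changes of sign follow from that constant, and the median over all rows became -0.32. The amount taken from an array ran from -0.29 in WT 3 to 0.29 in Tg 1, so the spread within groups and the p-values changed as well. Bckdhb then differed by 0.24, Hibch by 0.18, Dbt by 0.15 and Aldh6a1 by 0.12, and Bcat2 by 0.027. The groups of Bckdhb and Hibch stayed apart, against 0.876% of all rows apart with Tg higher. Bckdha (-0.014), Mccc1 (-0.0086), Ivd (-0.14), Bckdk (-0.19) and Ppm1k (-0.33) were below 0. None of the 10 passed in limma on this scale, with adjusted p from 0.23 (Ppm1k) to 0.97 (Mccc1). An unadjusted p under 0.05 was found in 0 of the 10, against 27.1% of all rows in either direction. The part of adipocyte content in the differences was not tested.

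**Figure D3:**
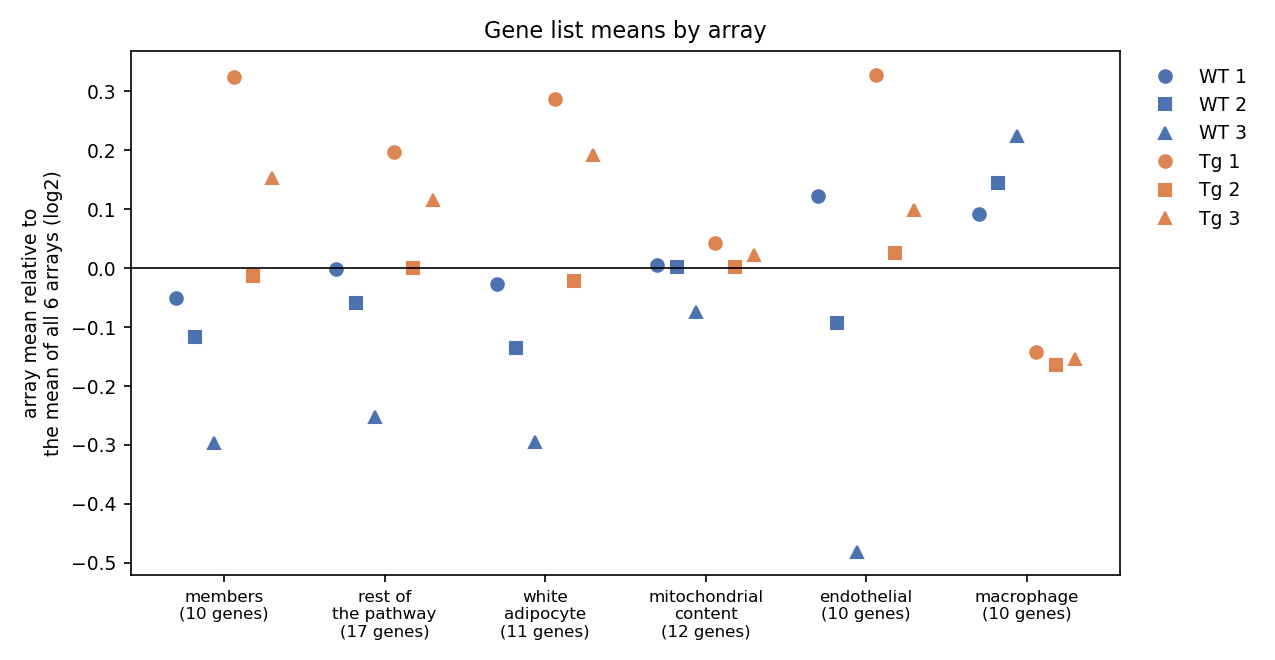
Mean log2 level of 6 gene lists on each array, relative to the mean of all 6 arrays, with WT in blue and Tg in orange. The 10 members and the white adipocyte markers follow the same order of arrays, from WT 3 at about -0.30 and -0.29 to Tg 1 at 0.32 and 0.29, and the mitochondrial genes span a far smaller range.

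Genes of general mitochondrial content had smaller differences. Across 12 of them, among them genes of the respiratory chain, protein import and the citrate cycle, the array means ran from -0.075 in WT 3 to 0.042 in Tg 1, and the median difference was 0.085. Cs, the citrate synthase gene, differed by 0.16 ± 0.093 (limma adjusted p = 0.59). Relative to the mean of these genes, a scaling added after seeing the data, the median difference of the 10 enzymes was 0.27. The 5 with groups apart stayed apart, against 5.25% of all rows and 9.57% of the equally bright rows apart with Tg higher. The part of mitochondrial content in the differences was not tested.

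Other cell types differed between the arrays as well. Endothelial markers ran from -0.48 in WT 3 to 0.33 in Tg 1, with WT 1 at 0.12 above Tg 2 and Tg 3. All 10 had a higher mean in Tg (47.2% of all rows), and 2 had groups apart (7.36% of all rows on this side). Macrophage markers were lower in Tg in 10 of 10, with array means of 0.092, 0.14 and 0.22 in WT and -0.14, -0.16 and -0.15 in Tg. The groups of 9 lay apart. Of all 41345 rows, 21839 had a lower mean in Tg and 3864 were apart on that side. Adgre1 differed by -0.45 ± 0.11 (limma adjusted p = 0.34). T and NK cell markers were lowest in WT 1 and Tg 3, at -0.73 and -0.89, and highest in WT 3, at 1.40. All 8 with a row had a lower mean in Tg, with a median difference of -0.94 and overlapping groups in each, as in 34438 of all 41345 rows. Skeletal muscle markers, from a tissue rich in Bcat2, had array means between 2.95 and 3.18. Of the 10, 6 were higher and 4 lower in Tg, with overlapping groups in each. Single genes were not level, as Acta1 read between 7.49 and 8.55 and differed by 0.46. Ckm and Tnnc2 were highest in WT 3, at 3.74 and 4.57. Mesothelial markers had array means between 4.82 and 5.31. The part of these cells in the differences was not tested.

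Reproductive tract transcripts, which a dissection of this fat pad can bring along, set some arrays apart. In Tg 2, 6 of the 10 measured epididymis markers stood far above the other arrays, among them Lcn9 at 9.87 against at most 1.62 elsewhere, while Lcn5 read between 1.40 and 2.44 in all 6. Serpina1f and Spink8, chosen after their values were seen, read 6.58 and 6.55 in WT 2 and 8.09 and 8.09 in WT 3, against at most 2.53 elsewhere. With WT 1, Tg 1 and Tg 3 alone, the median difference of the 10 enzymes was 0.31, that of Bckdhb 0.42, of Hibch 0.45, of Dbt 0.40 and of Bcat2 0.48. Mccc1 then differed by 0.097 and Bckdk by -0.0056. These values rest on WT 1 as the only WT array and are given as sizes of difference only.

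The rest of the pathway pointed the same way, with smaller differences. Of 17 further enzymes, carriers and cofactor genes with a row, 16 had a higher mean in Tg, with a median difference of 0.23, and 6 had groups apart. Over all rows these shares were 47.2% and 7.36%. None passed in limma (adjusted p from 0.46 to 0.91). Of the 17, 2 had an unadjusted p under 0.05, Hibadh and Echs1, both higher in Tg. On this side 4.43% of all rows and 7.34% of rows at least as bright as the dimmest member had such a p. Mmab, which prepares the cobalamin cofactor of methylmalonyl-CoA mutase, differed by 0.32 ± 0.14. Hibadh, the dehydrogenase between Hibch and Aldh6a1 in the valine branch, read 8.29, 8.26 and 8.09 in WT and 8.70, 8.40 and 8.47 in Tg (0.31 ± 0.12). The enoyl-CoA hydratase gene Echs1 and the thiolase gene Acat1, both shared with fatty acid oxidation, each differed by 0.27. Mccc2, the partner subunit of Mccc1, differed by 0.26 ± 0.11 with groups apart. Slc25a44, the mitochondrial carrier of branched-chain amino acids, read 6.95, 6.99 and 6.90 in WT and 7.28, 7.02 and 7.25 in Tg. The Slc25a44 difference was 0.23 ± 0.11 (SE, n = 3 per group; limma adjusted p = 0.52), with Tg 2 barely above WT 2. Bcat1, the cytosolic transaminase, was dim at 3.48 in WT and 3.85 in Tg and overlapped between the groups. Acad8, the isobutyryl-CoA dehydrogenase of the valine branch, was the gene with a lower mean in Tg (-0.054 ± 0.13).

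Of 8 genes for amino acid entry and transcriptional regulation, 7 had a higher mean in Tg and 2 had groups apart with Tg higher, beside the same shares of all rows. Mlxipl, the gene of the carbohydrate-responsive factor ChREBP, which also acts on the kinase and phosphatase of the complex in liver, differed by 0.61 ± 0.12 (limma adjusted p = 0.33). It read 6.38, 6.20 and 6.09 in WT and 6.79, 6.75 and 6.96 in Tg. Pparg, the master factor of adipocytes, differed by 0.26 ± 0.12 (limma adjusted p = 0.52). Klf15, a factor that acts on branched-chain amino acid genes in muscle and fat, read 4.74, 4.54 and 4.84 in WT and 5.34, 4.65 and 5.09 in Tg. Its groups overlapped through Tg 2, with a difference of 0.32 ± 0.19 (limma adjusted p = 0.61). Slc7a5, a plasma membrane carrier of these amino acids named after its values were seen, read 7.96 in Tg 2 and between 5.78 and 6.42 on the other 5 arrays.

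**Figure D4:**
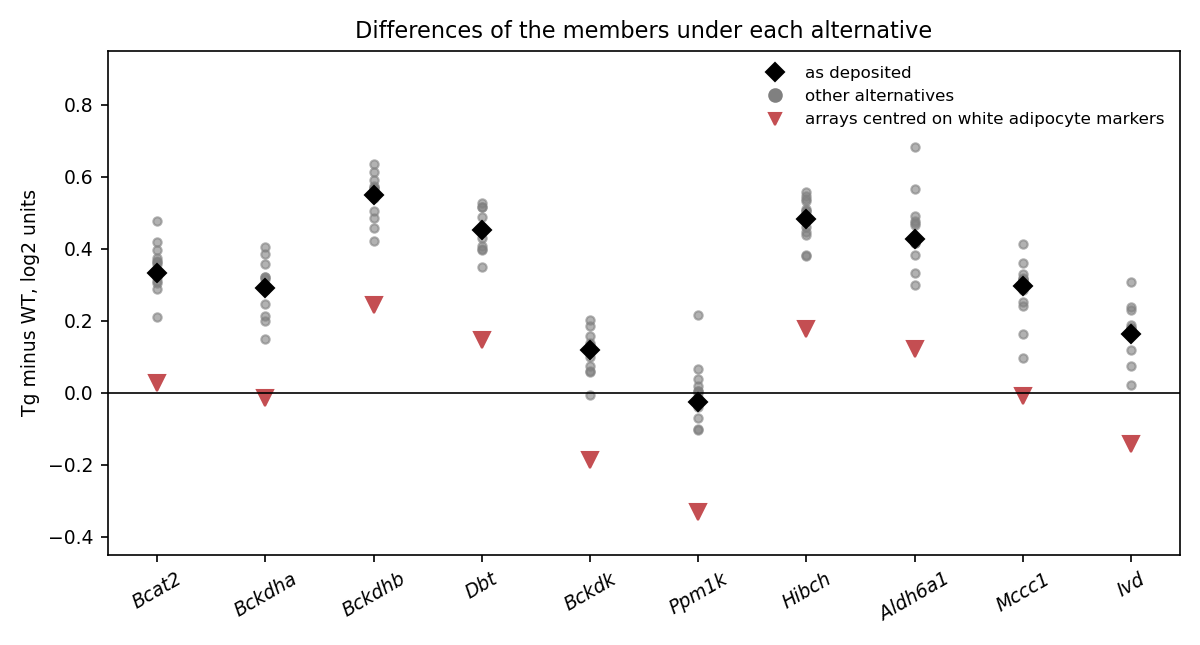
Difference of Tg minus WT in log2 units for each of the 10 genes as deposited (black diamonds), under each other alternative (grey) and after centring the arrays on white adipocyte markers (red triangles). Bcat2, Bckdhb, Dbt, Hibch and Aldh6a1 stay above 0 throughout, and Ppm1k lies on both sides of 0. The lowest values of these 5 run from 0.027 for Bcat2 to 0.24 for Bckdhb. Each is a red triangle, which is the deposited difference less the same 0.31.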

How the data were processed

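RNA was labelled with biotin for Affymetrix whole-transcript arrays from 400 ng of total RNA, per the labels' protocols. The deposited values are log2 expression, with array medians from 2.64 to 2.75. RMA and limma were named, per the submitters' processing notes, without versions. No source used here gives filters, settings or a genome build. RMA compresses differences of dim rows and removes a change of total RNA. Depth does not apply to arrays, and the 3 arrays per group limit the precision.

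Of 41345 rows, 23521 named 1 gene, 1814 several and 16010 none. Symbols were updated by gene ID through a RefSeq table of GRCm38.p6 (23328 of the 1-gene rows matched). Tg was compared with WT over all rows with limma 3.58.1 in R 4.3.3 (lmFit, eBayes, 2-sided, no covariate, no filter on dim rows). Adjustment was by Benjamini-Hochberg over all rows, at a threshold of 0.05. "Apart" means that every array of 1 group lay above every array of the other. The procedure was checked on simulated data.

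The members and gene lists were chosen with earlier results of these data known. Named were all members, Bcat1, Dld, Slc25a44, Klf15, the other listed pathway genes with groups apart, Adipoq, Slc2a4, Cs, Adgre1 and Lcn5; others are illustrations chosen with their values seen. Crisp1 was not analysed here. Same-numbered arrays did not deviate together (correlations over rows of -0.038, 0.0073 and -0.043), so the numbers were not taken as pairs. Alternatives left out each array, added the replicate number as a block, rescaled or weighted the arrays, and changed the rows, the variance model and the threshold.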

Additional observations from a re-analysis of the deposited data

How the results depend on the processing

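Limma called none of the 10 enzymes, and none of the 25 other pathway, entry and regulator genes, under any alternative run. The table as a whole gave 0 calls at an adjusted p of 0.05 under each of them and 10 at the looser threshold of 0.25. With 1 array left out, the median difference of the 10 enzymes lay between 0.23 and 0.41. The number at an unadjusted p under 0.05 lay between 3 and 5 (3 without WT 2, WT 3, Tg 1 or Tg 3). In these fits 7.51% to 12.3% of all rows were under that p, in either direction. The number with Tg apart on the high side was 8 without WT 1 or Tg 2. In these fits 14.0% and 13.8% of all rows, and 21.6% and 19% of the equally bright rows, were apart on that side. The number was 5 in the other fits, where 11.1% to 11.6% of all rows and 14.3% to 17% of the equally bright rows were. Fewer arrays make separation easier by construction. Bckdhb, Dbt and Hibch stayed under an unadjusted p of 0.05 in each of these 6 fits, and had the lowest p of the 10 with all arrays. With the replicate number as a block, 3 enzymes were at an unadjusted p under 0.05, the same 3, against 9.76% of all rows in either direction. No adjusted call changed. With WT 1, Tg 1 and Tg 3 alone, 0 were at an unadjusted p under 0.05 and 9 lay apart, against 33.4% of all rows. With arrays centred on white adipocyte markers the median was 0.0093, with 0 at that p and 2 apart. Bckdha (-0.014), Bckdk (-0.19), Mccc1 (-0.0086) and Ivd (-0.14) changed sign, since the centring takes the same 0.31 from the difference of each row. Bckdk was -0.0056 in the 3 arrays. Ppm1k ran from -0.10 to 0.065 with 1 array left out (0.018 without WT 2, 0.0054 without WT 3). It was 0.0055 after cyclic loess, 0.039 after median centring and 0.21 in the 3 arrays. Median centring adds the same constant to the difference of each row, so its change of sign follows from that constant. The cause of the other changes was not tested. Scaling to the adipocyte or mitochondrial genes and the choice of 3 arrays were added after seeing the data.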

Other observations

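Differences between a pair of enzymes on the same array do not depend on a constant added to an array. Each is given relative to its mean over all 6 arrays, for pairs chosen after the values were seen and with no test. Each pair set a gene with a larger difference between the genotypes against one with a smaller difference. The positive sign of the gap was therefore fixed by the choice. How many other pairs would lie apart was not analysed here. Bckdhb against its kinase gene Bckdk read -0.21, -0.080 and -0.36 in WT and 0.23, 0.21 and 0.21 in Tg, with groups apart by 0.43 on average. The Tg arrays were nearly equal in this measure, although Tg 1 and Tg 2 stood apart in most single genes. Dbt against Bckdk differed by 0.33 and Hibch against Ivd by 0.32, both with groups apart. Bckdhb against Bckdha, the other E1 subunit, read -0.15, -0.11 and -0.13 in WT and -0.029, 0.27 and 0.15 in Tg, also apart. Bckdk against Ppm1k read 0.24, -0.28 and -0.17 in WT and 0.16, 0.18 and -0.12 in Tg, and the groups overlapped.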
